A study of Mus musculus with 4 samples.

Results

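Matrix metalloproteases (MMPs), the related ADAMTS proteases, the ADAMTS-like proteins and the tissue inhibitors of metalloproteases (TIMPs) were mapped across the cells of the growing end of the mouse lower incisor. Members were all gene symbols of these 4 families in the deposited gene list, apart from the enamel protease Mmp20, which gave 49 of 32285 listed genes: 21 MMPs, 19 ADAMTS genes, 5 ADAMTS-like genes and 4 TIMPs. Single cells came from the proximal lower incisors of wild-type (WT) mice and of Din-KO mice at postnatal day 15, with 2 libraries per genotype made with the 10x Genomics 3′ chemistry. Din is the predicted gene 4930453N24Rik, and the Din-KO allele removes an exon in the germ line and carries a LacZ reporter read from the Din promoter, so every cell of the mouse has it. The labels do not give the strain, the sex or how many mice went into a library, so a p-value measures the spread between libraries only.

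MMPs are zinc enzymes that cut collagens and other matrix proteins outside the cell, and most are made as inactive precursors. ADAMTS enzymes are secreted and bind the matrix, where some trim the ends of procollagens and others cut proteoglycans such as versican. The ADAMTS-like proteins resemble them but have no protease domain, and TIMPs block the active site of MMPs and of some ADAMTS enzymes. Around an erupting tooth, the dental follicle is the connective tissue between the tooth and the bone that has to be remodelled for the tooth to move.

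After filtering, 11310 of the 20502 deposited cell barcodes remained, 3903 of WT replicate 1, 1560 of WT replicate 2, 4575 of Din-KO replicate 1 and 1272 of Din-KO replicate 2, and a pair of libraries shared at most 4 of them. The replicate 2 libraries of both genotypes stood apart, and the labels name them in another style than the replicate 1 libraries without saying what that marks. Their cells had medians of 11587.5 and 11486.5 UMIs (unique molecular identifiers, each counting a captured RNA molecule) against 9178 and 8016 in the replicate 1 libraries, and the summed mesenchyme markers in mesenchyme-like cells were 40250 and 34720 CPM (UMIs of a gene per 1000000 UMIs of the cells in question) against 9949 and 11030. The sum of 14 dissociation stress genes in those cells ran from 1632 CPM in WT replicate 1 to 4132 CPM in Din-KO replicate 2. Din itself, listed as din, had 36.3 and 28.5 CPM in WT and 22.6 and 28.3 CPM in Din-KO mesenchyme-like cells; the counts do not show which exons the reads came from, so this level did not tell the genotypes apart and the groups rest on the labels. No WT mesenchyme-like cell had a Y-linked transcript together with at most 1 UMI of Xist, a transcript of female cells. In the Din-KO libraries 43.4% and 43.7% of mesenchyme-like cells did, so the genotypes also differed in the sex of their cells. Xist cells were those with more than 2 Xist UMIs and 0 Y-linked UMIs. They numbered 2606, 806, 1088 and 285 in mesenchyme-like cells, in the order WT replicates 1 and 2 and Din-KO replicates 1 and 2. With only these cells, 0 members were called between genotypes in mesenchyme-like cells or a subtype. The other classes were not compared in this way.

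Cells were clustered without the members and named from marker genes, which placed 7160 cells in the mesenchyme-like class. Of these, the dental pulp-like subtype had 4642 cells, the dental follicle-like 1258 and the odontoblast-like 495, and 765 cells fitted no subtype. The other classes were macrophage-like (1252 cells), endothelium-like (747), B-like (592), epithelium-like (579), neutrophil-like (151), monocyte or dendritic-like (102), glia-like (94) and perivascular-like (77), beside 79 erythroid-like and 477 unnamed cells. A level below is the CPM of a gene in the summed UMIs of a class in a library, and 4 values in a row stand in the order WT replicate 1, WT replicate 2, Din-KO replicate 1, Din-KO replicate 2. The 3′ chemistry counts molecules at their end, so CPM was not divided by gene length.

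The 49 members together held 248417 of 137930955 UMIs, or 0.18%. Mmp1b, Mmp7 and Mmp21 had 0 UMIs, and Adamts8, Adamts13, Mmp3, Mmp10, Mmp12, Mmp24, Mmp27, Mmp28 and Timp4 had between 6 and 98. A mean of at least 10 CPM in some class was reached by 36 members: 12 MMPs, 17 ADAMTS genes, 4 ADAMTS-like genes and 3 TIMPs. Of these 36, 10 were highest in dental follicle-like cells, 7 in perivascular-like, 5 each in dental pulp-like and odontoblast-like, 4 in glia-like and 3 in neutrophil-like cells, and Adamts1 and Mmp12 were highest in endothelium-like and in monocyte or dendritic-like cells. In the test of each class against the others, 32 members had enough counts to be tested; a member that entered only through a class where it was high had to differ, so these counts do not speak for all 49. In mesenchyme-like cells 29 of the 32 were higher and 0 lower, where 37.7% of all 12704 tested genes were higher and 20.3% lower (edgeR's quasi-likelihood test, Benjamini-Hochberg adjusted p under 0.05). The 3 others were Mmp8, Mmp12 and Mmp25, whose unadjusted p was at least 0.984. Each had 0 UMIs in all B-like cells, so its mean log level over the other classes was not fixed. Such a p therefore does not show equal levels. The median log2 fold change of the 32 members was 3.90, against 0.17 over all tested genes. Each contrast set a class against the mean log level of the other tested classes, so a higher call did not make a class the highest. Mmp15 was among the 29 with 3.48, 3.66, 3.85 and 5.87 CPM in mesenchyme-like cells, against 47.4, 91.9, 60.3 and 75.3 CPM in endothelium-like cells. That call was lost in DESeq2 (adjusted p = 0.054) and with the WT libraries alone (edgeR adjusted p = 0.106). In edgeR it was also lost without WT replicate 2, Din-KO replicate 1 or Din-KO replicate 2 (adjusted p = 0.061, 0.054 and 0.070). Without the cells of highest doublet score it was lost too (edgeR adjusted p = 0.067).

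**Figure D1:**
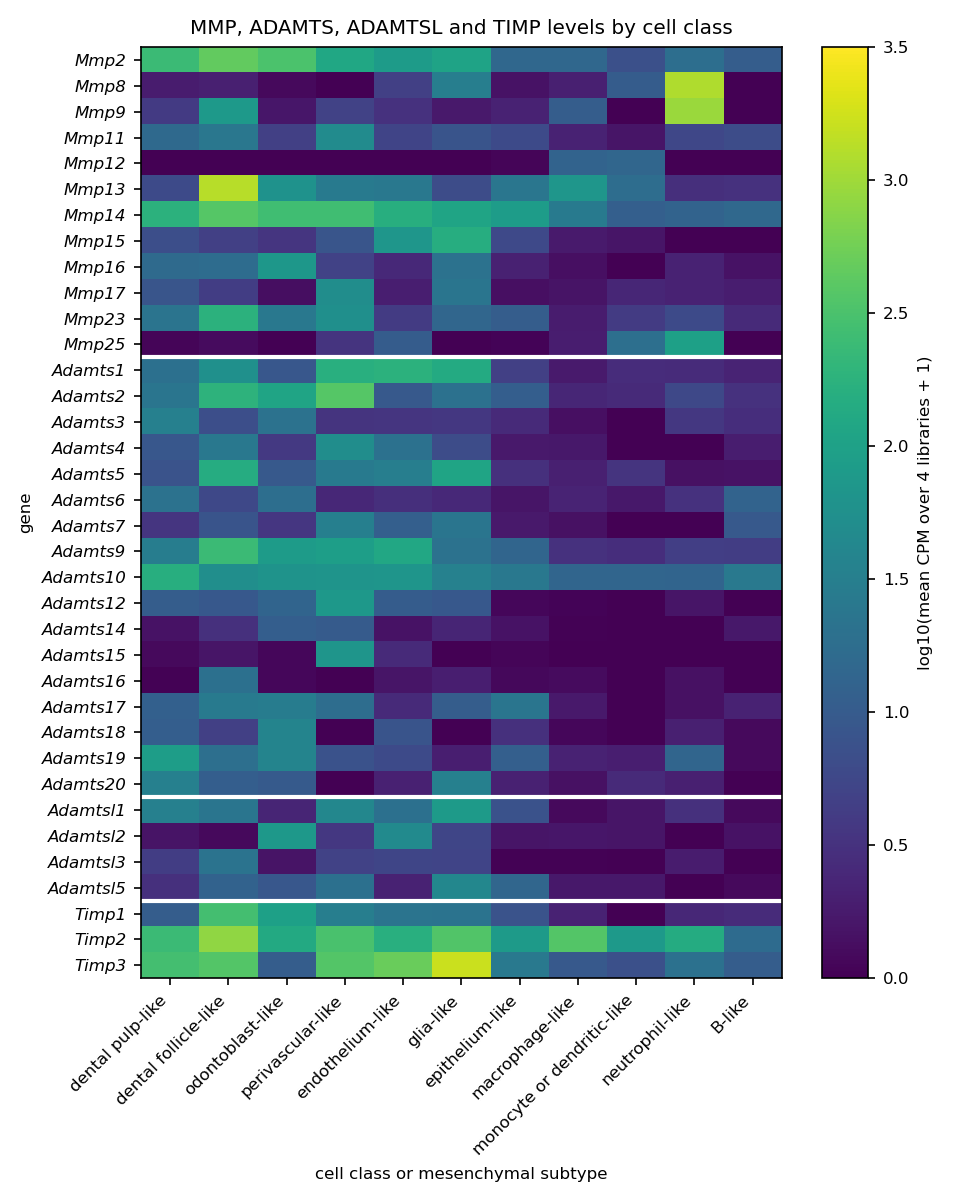
Heat map of the 36 members with at least 10 CPM in some class (rows, grouped by family) against 11 cell classes and mesenchymal subtypes (columns); colour is log10 of the mean CPM over the 4 libraries plus 1. The mesenchymal columns hold most of the bright cells, Mmp8, Mmp9 and Mmp25 are bright in neutrophil-like cells, and Timp3 is brightest in glia-like cells.

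Mmp13, collagenase 3, which cuts fibrillar collagen, lies on chromosome 9 at 7272514 to 7283331 on the plus strand (GRCm38). In dental follicle-like cells it had 1845, 800.9, 1462 and 1288 CPM. In dental pulp-like cells it had 3.46, 8.14, 3.96 and 4.67 CPM, so the lowest follicle library was far above the highest pulp library. The log2 fold change between them was 8.29 ± 0.95 (SE; edgeR's quasi-likelihood test, Benjamini-Hochberg adjusted p = 7.37e-05). A UMI of Mmp13 was found in 52.5% ± 5.64 (SD, n = 4 libraries) of follicle-like cells, against 3.82% ± 2.11 of pulp-like cells and 1.18% ± 1.54 of B-like cells, a class not known for this gene. Follicle-like cells were deeper, with medians from 11001 to 18449.5 UMIs against 2603.5 to 3550 in B-like cells; with each cell thinned to 2000 UMIs the shares were 38.4%, 0.79% and 1.22%, so the pulp-like share did not exceed that in B-like cells.

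Mmp13 is the outermost gene of a run of 8 neighbouring members on chromosome 9, with Mmp12, Mmp1b, Mmp3, Mmp10, Mmp8, Mmp27 and Mmp7, which spans 427 kb from 7272514 to 7699585. Of these 8, Mmp13 was the only gene above 10 CPM in any mesenchymal subtype, and Mmp8 was highest in neutrophil-like cells. RefSeq promoters (GRCm38.p6, 250 bases before to 50 after a gene's start) were found for 34 of the 49 members, which had 37 promoters. The AP-1 motif TGANTCA, the same on both strands, stood in 6 of these 37 promoters (16.2%) against 7.81% of all 32851 promoters, and the 6 were Mmp13, Mmp12, Mmp1b, Mmp3, Mmp10 and Mmp7 of this run. The RUNX motif TGTGGT on either strand stood in 6 of the 37 (16.2%) against 16.8% of all promoters. The windows are shown because neighbouring genes with the same motif had very unequal levels here; capitals mark the motif, and the windows of Mmp13 lie at chr9:7272468-7272497 and chr9:7272384-7272413 and that of Mmp12 at chr9:7347319-7347348, those of Mmp3 and Mmp10 at chr9:7445765-7445794 and chr9:7502268-7502297, all on the plus strand. A match describes letters and not a bound site.
Mmp13 AP-1: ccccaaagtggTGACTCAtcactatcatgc
Mmp12 AP-1: gacatcaacagTGAGTCAgatagaggattt
Mmp3 AP-1: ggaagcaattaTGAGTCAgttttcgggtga
Mmp10 AP-1: tagcacccatgTGAGTCAtgcttagtgacc
Mmp13 RUNX: attctgccacaaACCACActtaggaagaaa

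Mmp13 was unevenly spread over the follicle-like cells. The tenth of cells with the most Mmp13 held 59.9%, 77.0%, 80.7% and 72.9% of its follicle-like UMIs. By cluster, the highest level was in 199 cells led by Spp1, Ibsp and Serpine2, with 5752, 6052, 9583 and 6592 CPM of Mmp13. Spp1 and Ibsp encode bone matrix proteins. Of the 10 follicle markers only Postn and Aspn were among the leading genes of this cluster, and Postn also led a pulp-like cluster. Its marker scores placed it in the follicle-like subtype, but no list of bone-forming cells was scored. Whether these are follicle or bone cells was not tested. The cluster made up 26.9%, 10.9%, 12.5% and 13.7% of the follicle-like subtype and held 83.7%, 64.3%, 77.0% and 63.8% of the subtype's Mmp13 UMIs. A follicle-like cluster of 621 cells led by Sfrp2 and Pcp4 had 853, 626.8, 647.7 and 938.5 CPM of Mmp13, and one of 438 cells led by Bmp3 and Dkk2 had 10.3, 8.91, 9.29 and 39.2 CPM. A cluster of 161 mesenchyme-like cells without a subtype, led by Lpl and Mgp, had 324.1, 1431, 794.4 and 1055 CPM of Mmp13. With the Spp1 and Ibsp cluster left out, a setting added after the data were seen, follicle-like Mmp13 stood at 410.2, 312.2, 380.7 and 531.8 CPM and remained above pulp-like cells by 6.46 on the log2 scale.

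Single cells held much of the Mmp13 in some libraries of odontoblast-like and endothelium-like cells and in 1 library of macrophage-like cells. In odontoblast-like cells it had 20.1, 8.31, 3.55 and 205.4 CPM, and 1 cell held 89.0% of the 647 UMIs of Din-KO replicate 2. The endothelium-like level of WT replicate 2, 84.9 CPM against 5.61, 5.43 and 0.62 CPM in the other libraries, came to 88.4% from 1 cell. The mesenchyme markers in endothelium-like cells were also highest in that library (600.3, 3773, 671.9 and 427.1 CPM), and their part in the Mmp13 level was not tested. In macrophage-like cells, where 15.1% ± 2.26 of cells had a UMI (6.05% after thinning), the levels were 22.9, 29.5, 41.0 and 177.3 CPM, and 1 cell held 45.7% of the 164 UMIs of Din-KO replicate 2. The highest cell held 13.8%, 20.7% and 15.0% in WT replicate 1, WT replicate 2 and Din-KO replicate 1. The odontoblast-like class passed the test against pulp-like cells for Mmp13 (log2 fold change 3.0 ± 0.94, edgeR adjusted p = 0.025), and that call was lost without Din-KO replicate 2 (1.42, adjusted p = 0.090), without WT replicate 1 (3.06, adjusted p = 0.070) and with the WT libraries alone (1.76, adjusted p = 0.124). It was also lost at a clustering resolution of 0.5 (0.53, adjusted p = 0.67), without the cells of highest doublet score (1.67, adjusted p = 0.057) and with the members kept among the clustering genes (2.43, adjusted p = 0.054).

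**Figure D2:**
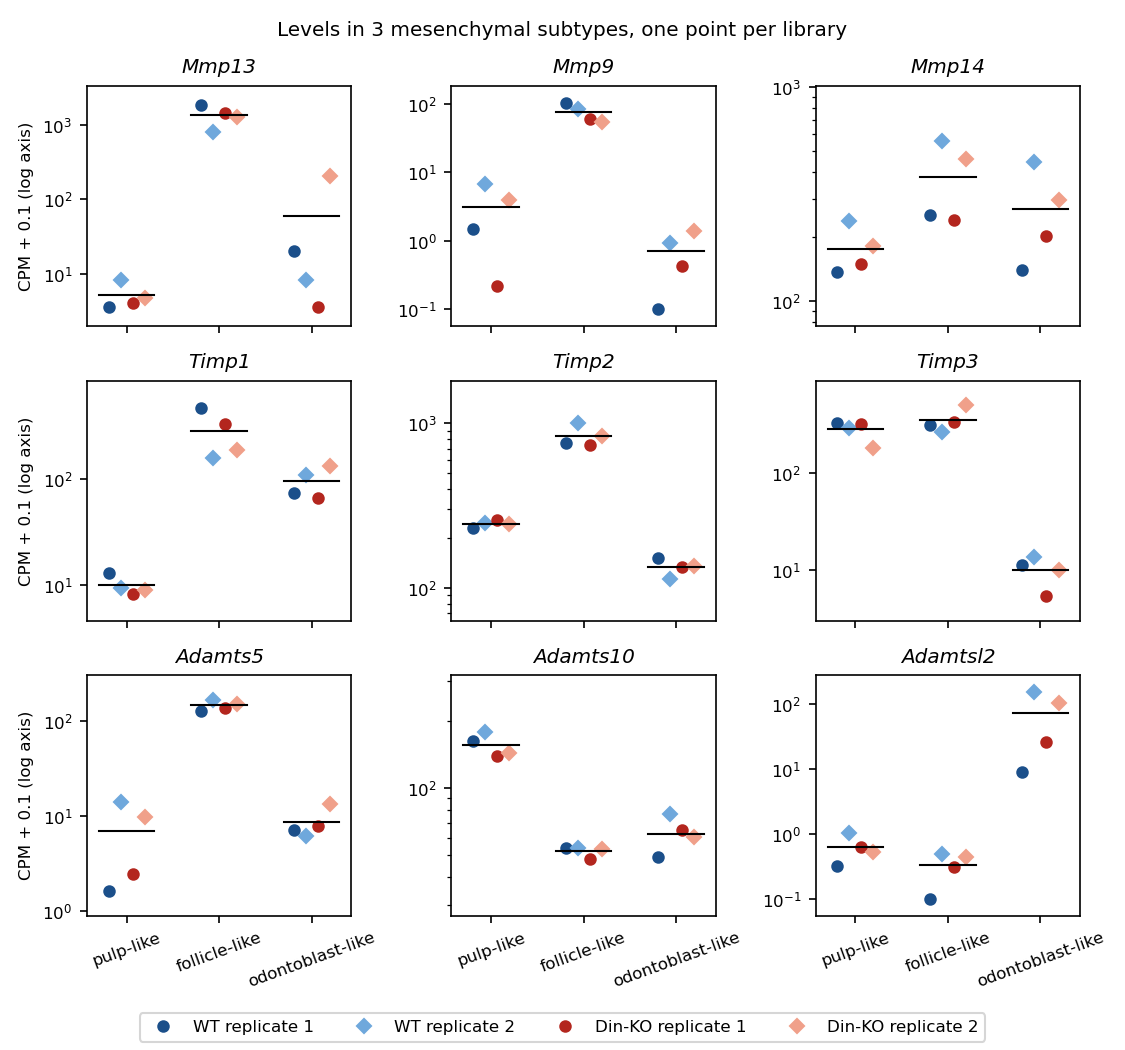
Level of 9 members in the pulp-like, follicle-like and odontoblast-like subtypes; the log axis is CPM plus 0.1, each point is a library coloured by genotype and the black line is the mean of the 4. Mmp13 and Mmp9 are highest in follicle-like cells in every library, Adamtsl2 in odontoblast-like cells, and Timp3 is lowest in odontoblast-like cells.

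Between follicle-like and pulp-like cells 34 members were tested, of which 19 were higher in follicle-like cells, where 18.2% of 13394 genes were higher, and 6 were lower, where 16.4% were lower; here too, a member that entered only through the subtype where it was high had to differ. The median log2 fold change of the members was 1.01, against 0.00 over all genes. Among the MMPs, gelatinase B, Mmp9, had 102.4, 84.7, 61.0 and 55.0 CPM in follicle-like and 1.40, 6.58, 0.12 and 3.82 CPM in pulp-like cells (log2 fold change 5.52 ± 0.52, edgeR adjusted p = 1.78e-05). It shared the uneven spread of Mmp13. After thinning, Mmp9 was found in 27.3%, 25.0%, 18.6% and 17.3% of follicle-like cells with an Mmp13 UMI and in 10.1%, 10.6%, 7.32% and 7.95% of those without, which is a description of cells that share libraries. Mmp9 is also a gene of osteoclasts and neutrophils. The 6 osteoclast markers summed to 290.3, 271.5, 257.4 and 300.4 CPM in follicle-like cells with 3 of the 6 at 0. Most of that sum was Ctsk, with 267.8, 250.6, 226.1 and 280.6 CPM. Ctsk was also present in pulp-like cells, at 118.1, 106.8, 125.7 and 100.5 CPM. The 9 neutrophil markers summed to 20.8, 236, 10.1 and 281.4 CPM in follicle-like cells. The part of osteoclasts or neutrophils in the Mmp9 levels was not tested.

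Gelatinase A, Mmp2, and the membrane protease Mmp14, which activates it, were present in all mesenchymal subtypes. Mmp2 had 133.9, 308.4, 222.5 and 293.9 CPM in pulp-like and 266.2, 492.2, 388.9 and 671.2 CPM in follicle-like cells. Mmp14 had 137, 236.7, 149.1 and 180.3 CPM in pulp-like and 251.4, 560.6, 238.8 and 459.9 CPM in follicle-like cells. The ranges overlapped between libraries, but each library was higher in its own follicle-like cells, by 0.95 ± 0.11 for Mmp2 (edgeR adjusted p = 5.99e-05) and 1.06 ± 0.17 for Mmp14 (adjusted p = 6.61e-04) on the log2 scale. Mmp23 rose by 2.99 ± 0.21, from between 16.2 and 24.6 CPM in pulp-like to between 131.5 and 218.6 CPM in follicle-like cells. Mmp11 (stromelysin 3) was higher by 0.74, whereas the membrane-anchored Mmp17 was lower by 1.06 (adjusted p = 0.035), a call that was lost without the Spp1 and Ibsp cluster (-0.90, adjusted p = 0.076), without either Din-KO library (adjusted p = 0.14 and 0.13) and in DESeq2 (adjusted p = 0.075).

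The 3 TIMPs above 10 CPM each had their own pattern. Timp2, which also helps Mmp14 to activate Mmp2, had 755.7, 1006, 733.2 and 833.1 CPM in follicle-like against 230.5, 245.2, 258.1 and 242.2 CPM in pulp-like cells (log2 fold change 1.804 ± 0.122, edgeR adjusted p = 2.1e-06). Timp1 had 470, 156.6, 331.3 and 187.6 CPM in follicle-like and 13.01, 9.39, 8.16 and 8.91 CPM in pulp-like cells (4.85 ± 0.42, adjusted p = 9.05e-06). Timp1 was concentrated in the Spp1 and Ibsp cluster, at 1660, 980.7, 2326 and 918.9 CPM, which held 94.9%, 53.3%, 82.5% and 61.1% of its follicle-like UMIs; without that cluster the Timp1 levels were 33.0, 79.9, 65.5 and 83.4 CPM and the log2 fold change was 2.56. Timp3, the TIMP that binds to the matrix, did not pass the test between follicle-like and pulp-like cells (317.7, 268, 341.1 and 511.8 CPM against 337.3, 296.5, 330.1 and 184.1 CPM; 0.34 ± 0.28, adjusted p = 0.37). Timp1 lies within Syn1 and Timp3 within Syn3, each on the other strand, so reads of these pairs are parted only as far as the counting used strand. Timp2 overlaps Cep295nl on the same strand, so strand cannot part the reads of that pair.

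Among the ADAMTS genes, Adamts16 had 11.4, 46.5, 7.495 and 9.58 CPM in follicle-like cells against 4 UMIs in all pulp-like cells of the 4 libraries. It could enter the test only through its follicle-like counts, so no fold change or p is given. It was found in the Bmp3 and Dkk2 cluster (20, 70.1, 19.7 and 19.8 CPM) and was nearly absent from the Spp1 and Ibsp cluster (0, 3.05, 0 and 0 CPM), the reverse of Mmp13. Adamts5, an aggrecanase, had 126.7, 167.2, 137.7 and 150.5 CPM in follicle-like against 1.51, 13.8, 2.34 and 9.76 CPM in pulp-like cells (5.03 ± 0.41, adjusted p = 6.99e-06), and it was alike in the Sfrp2, Bmp3 and Spp1 clusters, with means of 144.7, 150.3 and 135.1 CPM. Adamts9, a versican-cutting protease, had 218.4, 300.4, 195.3 and 268 CPM against 26.6, 43.5, 24.1 and 22.1 CPM. Adamts2, which removes the amino-terminal propeptide of collagen I, had 123.2, 254.6, 130.8 and 226.9 CPM against 10.3, 31.0, 11.5 and 36.1 CPM. Adamts1, Adamts4, Adamts7 and Adamts17 and the ADAMTS-like genes Adamtsl3 and Adamtsl5 were higher by between 1.13 and 2.42 on the log2 scale. Adamts14 was also called higher, but its 2, 4, 3 and 1 pulp-like UMIs were too few to have entered the test by themselves, so no fold change is given.

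The ADAMTS genes also gave 5 of the 6 members that were lower in follicle-like than in pulp-like cells. Adamts3, a close relative of Adamts2 known to process procollagen and VEGF-C, had 35.5, 31.0, 28.5 and 34.4 CPM in pulp-like and 8.10, 5.96, 4.93 and 5.05 CPM in follicle-like cells (log2 fold change -2.36 ± 0.18, edgeR adjusted p = 4.91e-06), so the related Adamts2 and Adamts3 had opposite directions. Adamts10 had 162, 177.2, 138.3 and 142.5 CPM in pulp-like against 54.0, 53.8, 48.2 and 53.1 CPM in follicle-like cells (-1.53 ± 0.13, adjusted p = 6.79e-06). Adamts19, Adamts6 and Adamts20 were lower by 2.32, 2.17 and 1.66 on the log2 scale. For Adamts3 and Adamts10 no follicle-like library reached the level of a pulp-like one.

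Within the pulp-like cells the same genes differed by cluster. Adamts10 was highest in clusters led by Slc20a2 and Postn (284.3 and 337.7 CPM in the 2 libraries with at least 20 such cells) and by Cldn10 and Ifitm1 (221.2, 316.3, 215.5 and 312.9 CPM), and lower in the cluster led by Vcan and Rspo4 (98.0, 138.9, 104.5 and 136.5 CPM). Adamts19 had 90.7, 173.2, 135.3 and 331.7 CPM in the cluster led by Gpha2 and Cnmd and 75.5, 208.9, 112.6 and 233.5 CPM in that led by Vcan and Rspo4, against 21.7, 28.9, 26.0 and 53.6 CPM in the Cldn10 cluster. Adamts20, a versican-cutting relative of Adamts9, had 78.5, 68.6, 85.1 and 66.5 CPM in the cluster led by Lypd1 and Tac1 and a mean of 1.53 CPM in the Cldn10 cluster. Adamtsl1 was highest in the cluster led by Smoc2 and Col8a1 (75.5, 92.6, 52.9 and 89.6 CPM). The members were not among the genes that formed these clusters, but no test was made between clusters.

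**Figure D3:**
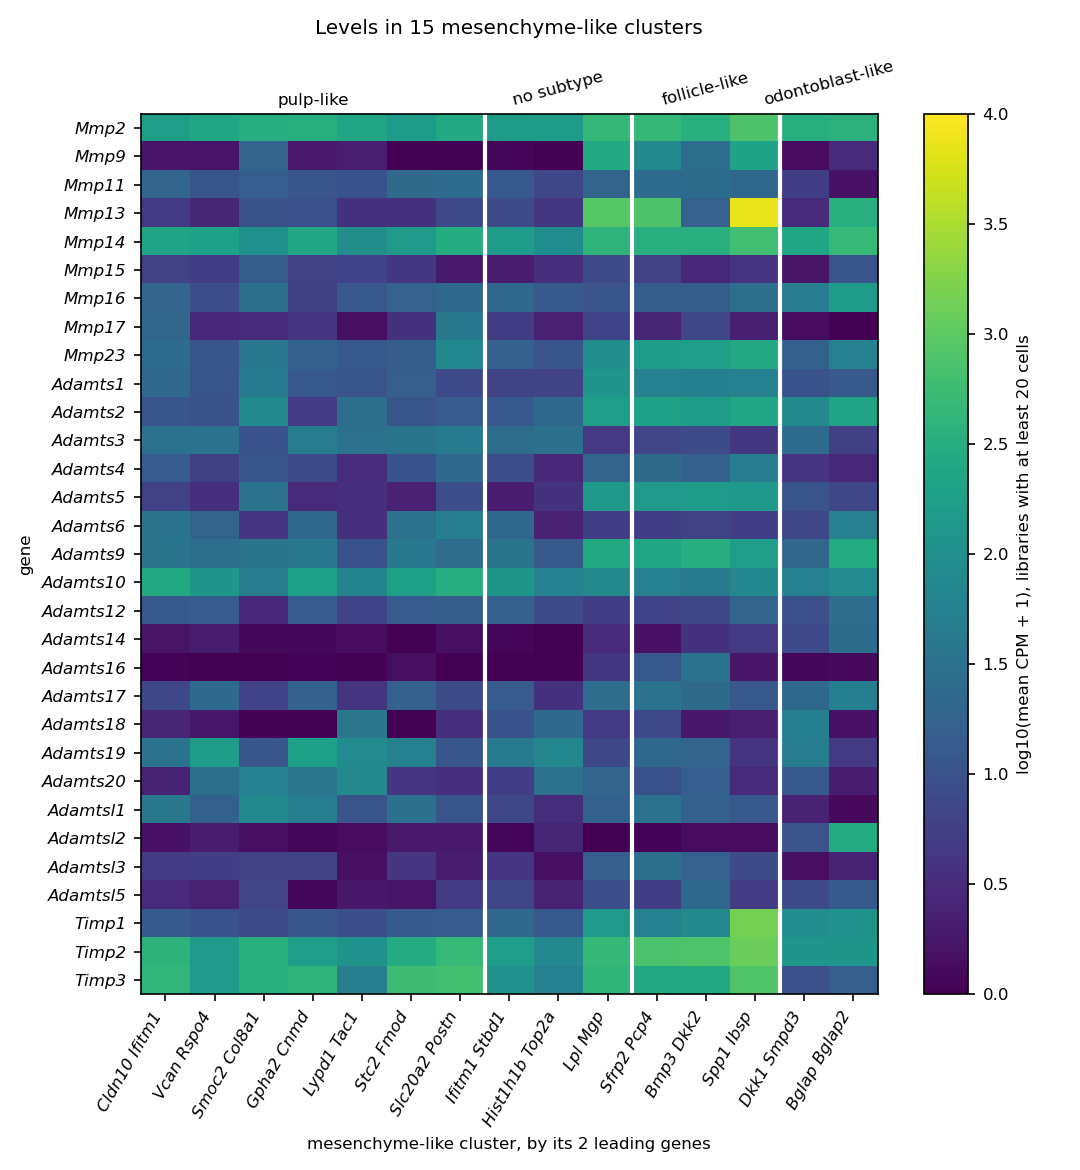
Heat map of 31 members (rows) against 15 mesenchyme-like clusters named by their leading genes (columns); colour is log10 of the mean CPM plus 1, over libraries with at least 20 cells of the cluster. The Spp1 and Ibsp cluster has the highest level of 9 members, Mmp13 and Timp1 among them, and the Bglap and Bglap2 cluster that of 6, Adamtsl2 and Mmp16 among them. The mean of the Bglap and Bglap2 cluster covers only the replicate 2 libraries, whereas that of the Spp1 and Ibsp cluster covers both replicates.

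Odontoblast-like cells, which lay down dentin, had 12 of the 34 tested members higher than pulp-like cells, where 21.9% of all genes were higher. They had 12 lower, where 22.1% were lower. A member that entered only through a subtype where it was high had to differ, so these counts do not speak for all members. Among the lower ones, Mmp17 had 2, 0, 1 and 0 odontoblast-like UMIs and Mmp19 had 0, 1, 0 and 3. Among the mesenchymal subtypes, the most distinct member of odontoblast-like cells was Adamtsl2, a secreted protein that binds the matrix without protease activity. It had 9.05, 153.1, 26.2 and 103.8 CPM in odontoblast-like cells and 17 UMIs in all pulp-like cells, too few to have entered the test by themselves, so no fold change or p is given. Its level followed the replicate number, with both replicate 2 libraries above both replicate 1 libraries, and so did the sum of odontoblast markers in this subtype (10230, 55170, 15620 and 41110 CPM). In the cluster led by Bglap, Bglap2 and Dspp, which had at least 20 cells only in the replicate 2 libraries, Adamtsl2 stood at 288.3 and 285.7 CPM, against 1.10, 17.7, 4.36 and 14.7 CPM in the cluster led by Dkk1, Smpd3 and Dmp1. The Bglap cluster was 8.74%, 48.9%, 10.3% and 42.3% of the odontoblast-like cells.

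Other members parted the same clusters. Mmp16, a membrane protease, had 133.4 and 176.6 CPM in the Bglap cluster against 34.1, 66.5, 36.0 and 59.6 CPM in the Dkk1 cluster, and over all odontoblast-like cells it was above pulp-like cells by 2.45 ± 0.30 on the log2 scale (37.2, 100, 45.9 and 98.1 CPM against 15.2, 18.2, 12.2 and 15.3 CPM; edgeR adjusted p = 8.43e-05). Adamts14, a procollagen propeptidase like Adamts2, had 2.01, 24.1, 2.26 and 12.4 CPM in odontoblast-like cells against at most 1.25 CPM in pulp-like cells. Its pulp-like UMIs numbered 2, 4, 3 and 1, too few to have entered the test by themselves, so no fold change or p is given. Adamts2 had 51.8, 164.7, 77.8 and 145.4 CPM in odontoblast-like cells (log2 fold change 2.73 ± 0.16, edgeR adjusted p = 8.03e-07). Adamts18 was arranged in the other direction, with 35.2, 42.7, 46.9 and 80.9 CPM in the Dkk1 cluster and 1.11 and 0 CPM in the Bglap cluster. Timp1, Adamts9, Adamts17, Adamtsl5, Mmp14 and Mmp2 were higher than in pulp-like cells by between 0.72 and 3.67 on the log2 scale. Several of these calls hung on the clustering or on a library. At the resolution of 0.5 the log2 fold changes of Adamts9, Mmp14 and Adamts17 were 0.39, 0.24 and 0.54 (adjusted p = 0.41, 0.235 and 0.058), and with the members kept among the clustering genes those of Adamts9 and Mmp14 were 0.89 and 0.365 (adjusted p = 0.107 and 0.075). Adamts9 was also not called without WT replicate 2 (1.08, adjusted p = 0.089) or without Din-KO replicate 2 (1.18, adjusted p = 0.111).

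Timp3 was low in odontoblast-like cells. It had 11.1, 13.3, 5.17 and 9.84 CPM there against 184.1 to 337.3 CPM in pulp-like cells (log2 fold change -4.54 ± 0.35, edgeR adjusted p = 4.5e-06), and the libraries did not come near each other. A UMI of Timp3 was found in 12.1% ± 3.45 of odontoblast-like cells (2.14% after thinning, near the 2.08% of thinned B-like cells), against 84.1% ± 3.80 of follicle-like cells. Timp2 was lower by 0.57 ± 0.12 (150.3, 112.7, 133.7 and 135.2 CPM; adjusted p = 0.0035), whereas Timp1 was higher by 3.67 ± 0.41 (73.9, 110.2, 66.2 and 133.6 CPM; adjusted p = 5.21e-05). The other lower members were Adamtsl1, Adamtsl3, Adamtsl4, Mmp11, Mmp17, Mmp19, Adamts1, Adamts4, Adamts10 and Adamts20. Adamts1 lost its call without WT replicate 2 (-0.92, adjusted p = 0.069) and without Din-KO replicate 1 (-0.81, adjusted p = 0.099). The direction of Adamts20 turned under other clusterings, with a log2 fold change of 0.09 when the members were kept among the clustering genes and 0.19 at a coarser resolution.

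Summed over family, the balance of inhibitor to enzyme transcripts differed between subtypes. The MMPs summed to 2646, 2216, 2340 and 2743 CPM in follicle-like cells and the TIMPs to 1544, 1431, 1406 and 1533 CPM, a ratio of TIMP to MMP transcripts of 0.58, 0.65, 0.60 and 0.56. In odontoblast-like cells the TIMPs summed to 235.7, 236.2, 205.4 and 278.7 CPM and the ratio was 0.63, 0.25, 0.35 and 0.25, and in pulp-like cells it was 1.74, 0.86, 1.36 and 0.78. The follicle-like ratio was thus the steadiest, and the pulp-like one overlapped with neither. These ratios are descriptions and count transcripts, not active protein.

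**Figure D4:**
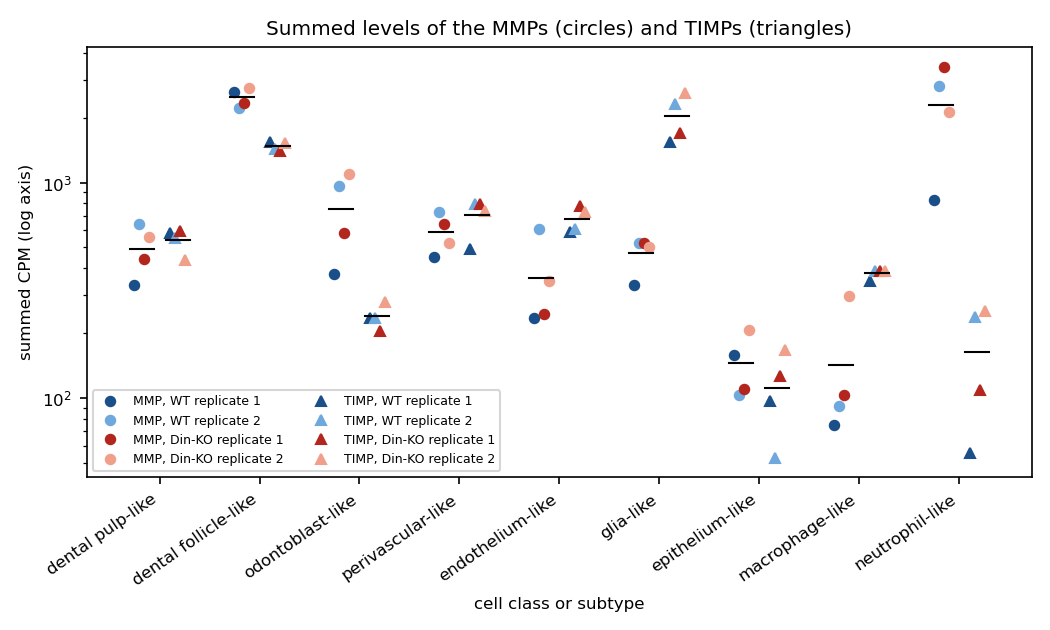
Summed CPM of the 21 MMPs (circles) and the 4 TIMPs (triangles) in each class, on a log axis, with a point per library coloured by genotype. TIMP transcripts exceed MMP transcripts in every glia-like, macrophage-like and perivascular-like library, and MMP transcripts exceed TIMP transcripts in every follicle-like, odontoblast-like and neutrophil-like library.

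In endothelium-like cells 16 of the 32 tested members were higher and 0 lower than in the other classes, where 28.7% of genes were higher and 15.4% lower. Adamts1, which cuts versican, had 52.0, 282.1, 87.2 and 282.7 CPM there (log2 fold change 5.20 ± 0.27, edgeR adjusted p = 5.42e-14) and again was higher in both replicate 2 libraries. Timp3 had 425.8, 359.3, 618.6 and 569.1 CPM, and the membrane protease Mmp15 had 47.4, 91.9, 60.3 and 75.3 CPM. Mmp15 could enter the test only through its endothelium-like counts, so no fold change or p is given for this class. Adamtsl2, the odontoblast-like member above, had its second highest mean level in endothelium-like cells, at 17.8, 50.5, 41.1 and 74.1 CPM. In both replicate 1 libraries this was above the odontoblast-like level of 9.05 and 26.2 CPM.

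Glia-like and perivascular-like cells had fewer than 20 cells in 2 of the 4 libraries and were not tested. Timp3 reached its highest level of all classes in glia-like cells, 1234, 1826, 1372 and 2242 CPM, where 98.2% of cells had a UMI (79.7% after thinning). Mmp15 was highest there too, at 107.7, 138.1, 144.4 and 205.8 CPM. In perivascular-like cells Adamts2 had 262.6, 491.2, 264.8 and 470.7 CPM, above follicle-like cells in each library. Adamts15 had 52.5, 80.2, 73.1 and 60.9 CPM in perivascular-like cells and at most a mean of 1.64 CPM in any other class, and Adamts12 had 70.0, 80.2, 54.8 and 83.1 CPM against a mean of 12.6 CPM in the next class. Mmp17, Adamts4, Mmp11 and Adamts7 were also highest in these cells, with means from 31.0 to 51.6 CPM. The perivascular-like levels of these genes rest on only 3 to 15 UMIs per library, and those of Adamts15 and Adamts12 on 9 to 16.

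Din-KO replicate 1 had 17 neutrophil-like cells, under the minimum of 20, so the test of this class rests on the 3 other libraries. Neutrophil-like cells had 3 members higher than the other classes, where 16.6% of genes were higher, and 1 lower, Mmp14, where 15.2% were lower. Mmp8, the neutrophil collagenase, had 471.5, 1405, 1886 and 1118 CPM (log2 fold change 10.13 ± 0.27, edgeR adjusted p = 1.15e-16). Mmp9 had 278.7, 1200, 1445 and 817.2 CPM (9.76 ± 0.39, adjusted p = 3.68e-13). Mmp25, the leukocyte membrane protease, had 41.8, 127.2, 101.1 and 114.3 CPM (7.71 ± 0.52, adjusted p = 1.7e-10). WT replicate 1 was the lowest library for each, and Mmp8 was found in 73.3% ± 19.2 and Mmp9 in 84.6% ± 18.4 of neutrophil-like cells against 0 of 592 B-like cells for either. The other libraries had 31, 71 and 32 neutrophil-like cells. Mmp8, Mmp9 and Mmp25 had 0 UMIs in all B-like cells, and Mmp9 had 0 in monocyte or dendritic-like cells too. Their mean log level over the other classes was therefore not fixed, nor was the size of their fold changes and errors above.

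In macrophage-like cells 3 members were higher, where 27.1% of genes were higher, and 10 lower, where 19.7% were lower. Timp2 had 338.4, 381, 375.8 and 382.8 CPM (log2 fold change 1.89 ± 0.22, edgeR adjusted p = 1.59e-07) and was the steadiest member of this class. Mmp9 had 17.0, 10.2, 6.02 and 5.41 CPM (adjusted p = 0.020), a call lost without WT replicate 1 (adjusted p = 0.111), without Din-KO replicate 1 (adjusted p = 0.072) and with the members kept among the clustering genes (adjusted p = 0.058). Mmp12, the macrophage elastase, had 1.22, 0, 2.87 and 43.3 CPM, the last resting on 40 UMIs, and was not called by DESeq2 (adjusted p = 0.157). Mmp12 and Mmp8 were the 2 members higher in monocyte or dendritic-like cells, where 13.5% of genes were higher, and 3 were lower, where 6.38% were lower; this test rests on 3 libraries, since WT replicate 2 had 8 such cells. There Mmp12 was not called by DESeq2 (adjusted p = 0.114), nor Mmp8 without WT replicate 1 (adjusted p = 0.125). Mmp12 had 7, 0, 11 and 2 UMIs in monocyte or dendritic-like cells and 5, 0, 20 and 40 in macrophage-like cells. It could enter the test only through these 2 classes, and a gene that entered in this way had to differ, so its higher calls are no evidence. B-like cells had 14 members lower, where 25.0% of genes were lower, and Adamts6 and Adamts7 higher, at 6.86, 14.7, 15.8 and 9.93 CPM and 5.88, 16.6, 5.27 and 5.96 CPM, where 24.8% were higher.

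In epithelium-like cells 9 members were higher, where 33.7% of genes were higher, and 2 lower, where 21.1% were lower. Mmp14, one of the 9 higher members, had 72.7, 73.3, 77.5 and 114.4 CPM, which was still below every pulp-like, follicle-like and odontoblast-like library. Adamts17 had 19.97, 11.4, 27.2 and 28.7 CPM (log2 fold change 4.88 ± 0.41, edgeR adjusted p = 1.42e-09). It had 0 UMIs in monocyte or dendritic-like cells, so the size of this fold change and of its error was not fixed. Adamtsl5 had 9.63, 14.8, 15.0 and 14.1 CPM. It could enter the test only with its epithelium-like counts, so no fold change or p is given for it. The count of 9 was 4 with the WT libraries alone.

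The comparison of Din-KO with WT asked whether loss of Din changed these genes. No member passed the test in the 5 classes and 3 mesenchymal subtypes compared; neutrophil-like, monocyte or dendritic-like, glia-like and perivascular-like cells were not compared between genotypes. In mesenchyme-like cells 37 members were tested and 0 were called by edgeR or DESeq2, where 0.0% of 15289 genes were called by edgeR, and 1 member had an unadjusted p under 0.05, where 0.975% of genes did. The count was 0 of 32 in pulp-like, 34 in follicle-like, 25 in odontoblast-like, 4 in B-like, 20 in endothelium-like, 18 in epithelium-like and 8 in macrophage-like cells by either tool, where 0.0% of genes were called in the first 4 of these and in epithelium-like cells, 0.0539% in endothelium-like and 0.0587% in macrophage-like cells. The members' median log2 fold change was -0.17 in mesenchyme-like, -0.28 in pulp-like and -0.17 in follicle-like cells, against -0.02, -0.01 and -0.02 over all genes. In odontoblast-like and endothelium-like cells it was -0.03 and -0.32, against -0.03 and -0.01 over all genes. It was positive in B-like, epithelium-like and macrophage-like cells, at 0.12, 0.63 and 0.26, against -0.02, -0.04 and -0.01 over all genes.

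The 10 members with the highest mean in mesenchyme-like cells had log2 fold changes smaller than their errors, or near them. Mmp13 had 323.6 and 451.1 CPM in WT and 255.4 and 698.3 CPM in Din-KO (0.26 ± 0.52), and within follicle-like cells its log2 fold change was 0.00 ± 0.41. Timp2 had 306.1 and 581.9 CPM in WT and 309.8 and 493.5 CPM in Din-KO (-0.18 ± 0.41). Mmp2 had 154.8 and 412.5 CPM in WT and 255.9 and 531.1 CPM in Din-KO (0.43 ± 0.60). For Mmp14, Adamts9, Adamts2 and Mmp23 the replicate 2 library was above the replicate 1 library in both genotypes, and the genotypes overlapped, with log2 fold changes of -0.26 ± 0.63, -0.29 ± 0.82, -0.11 ± 1.02 and -0.01 ± 0.81. Timp3, Timp1 and Adamts10 stood at 0.16 ± 0.26, -0.05 ± 0.35 and -0.29 ± 0.33. With errors of this size, only large changes of these genes could have been called, and a missed threshold does not show that the genotypes were alike.

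The members that follow had an unadjusted p under 0.05 in edgeR's quasi-likelihood test, each with a Benjamini-Hochberg adjusted p of 1. They numbered 1 in pulp-like, 2 in follicle-like, 2 in endothelium-like, 1 in epithelium-like, 2 in macrophage-like and 0 in odontoblast-like and B-like cells, where 1.66%, 2.5%, 3.04%, 1.26%, 3.13%, 0.9% and 1.78% of all genes had such a p. Adamts16 had 11.4 and 46.5 CPM in WT and 7.495 and 9.58 CPM in Din-KO follicle-like cells (log2 fold change -1.83 ± 0.64, edgeR adjusted p = 1), and it was the only member whose libraries did not overlap in a mesenchymal subtype with a change of at least 1. WT replicate 2 held 359 of its follicle-like UMIs, against 35 to 55 in each other library. Adamts16 was called without the filter on low counts (adjusted p = 3.42e-06) and without WT replicate 1 (-2.49, adjusted p = 3.14e-05), whereas without WT replicate 2 its log2 fold change was -0.49 (adjusted p = 0.977). In Xist cells only it was -2.77 (adjusted p = 1). Mmp9 had 102.4 and 84.7 CPM in WT and 61.0 and 55.0 CPM in Din-KO follicle-like cells (-0.75 ± 0.22), and 17.0 and 10.2 against 6.02 and 5.41 CPM in macrophage-like cells (-1.21 ± 0.44, and -0.655 without WT replicate 1). In Xist cells only the follicle-like difference of Mmp9 was -1.199. The Spp1 and Ibsp cluster made up 26.9%, 10.9%, 12.5% and 13.7% of follicle-like cells and held 57.0%, 30.9%, 40.0% and 21.8% of their Mmp9 UMIs. Without this cluster the Mmp9 difference in follicle-like cells was -0.53. The part of the cluster in that difference was not tested.

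Adamts6, a relative of Adamts10, had 28.4 and 20.4 CPM in WT and 15.3 and 14.9 CPM in Din-KO pulp-like cells (log2 fold change -0.72 ± 0.29), which was -0.34 without WT replicate 1. Its difference over all mesenchyme-like cells was -0.87 ± 0.31, and it was -0.57 without WT replicate 1 and -0.46 in Xist cells only. Timp3 had 425.8 and 359.3 CPM in WT and 618.6 and 569.1 CPM in Din-KO endothelium-like cells (0.62 ± 0.23), and 18.5 and 9.12 against 30.0 and 41.4 CPM in epithelium-like cells (1.30 ± 0.37). In epithelium-like cells the glia markers summed to 36.4, 14.0, 48.9 and 184.7 CPM and the pulp markers to 441.4, 155.9, 580.3 and 376.3 CPM. The part of such cells in the Timp3 levels was not tested. Mmp13 passed the unadjusted threshold in endothelium-like cells (-3.47) and macrophage-like cells (2.04 ± 0.62), where single cells held much of its UMIs in some libraries, as above. The endothelium-like value was -0.66 without WT replicate 2, and it was called without WT replicate 1 (-4.40, adjusted p = 1.39e-05) and without the filter on low counts (adjusted p = 4.69e-14). The macrophage-like value was 0.81 without Din-KO replicate 2, and it was called without Din-KO replicate 1 (2.77, adjusted p = 9.12e-06) and without the filter (adjusted p = 1.41e-06). With a term for the replicate number, Timp3 in endothelium-like cells (adjusted p = 0.036) and Mmp9 and Mmp13 in macrophage-like cells (adjusted p = 0.025 and 2.18e-12) were called.

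Counting members whose Din-KO libraries lay on one side of both WT libraries gave 3 higher and 4 lower of 37 in mesenchyme-like cells, where 11.3% and 6.46% of all genes did. In pulp-like cells there were 1 higher and 8 lower of 32, against 10.6% and 12.3% of genes. The 8 were Adamts4, Adamts6, Adamts9, Adamts10, Adamts12, Adamts17, Mmp19 and Timp1. In follicle-like cells there were 2 higher (Timp3 and Adamts20) and 5 lower (Mmp9, Adamts3, Adamts6, Adamts10 and Adamts16) of 34, against 15.4% and 8.56% of genes, and in odontoblast-like cells 4 higher and 1 lower of 25, against 15.1% and 6.46%. With 2 libraries a side an exact permutation test cannot give a two-sided p below 0.333. The difference of the genotype effect between follicle-like and pulp-like cells was also tested, and 0 of 34 members were called, where 0.0% of 13507 genes were, with an unadjusted p under 0.05 for Adamtsl1 and Adamts18.

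**Figure D5:**
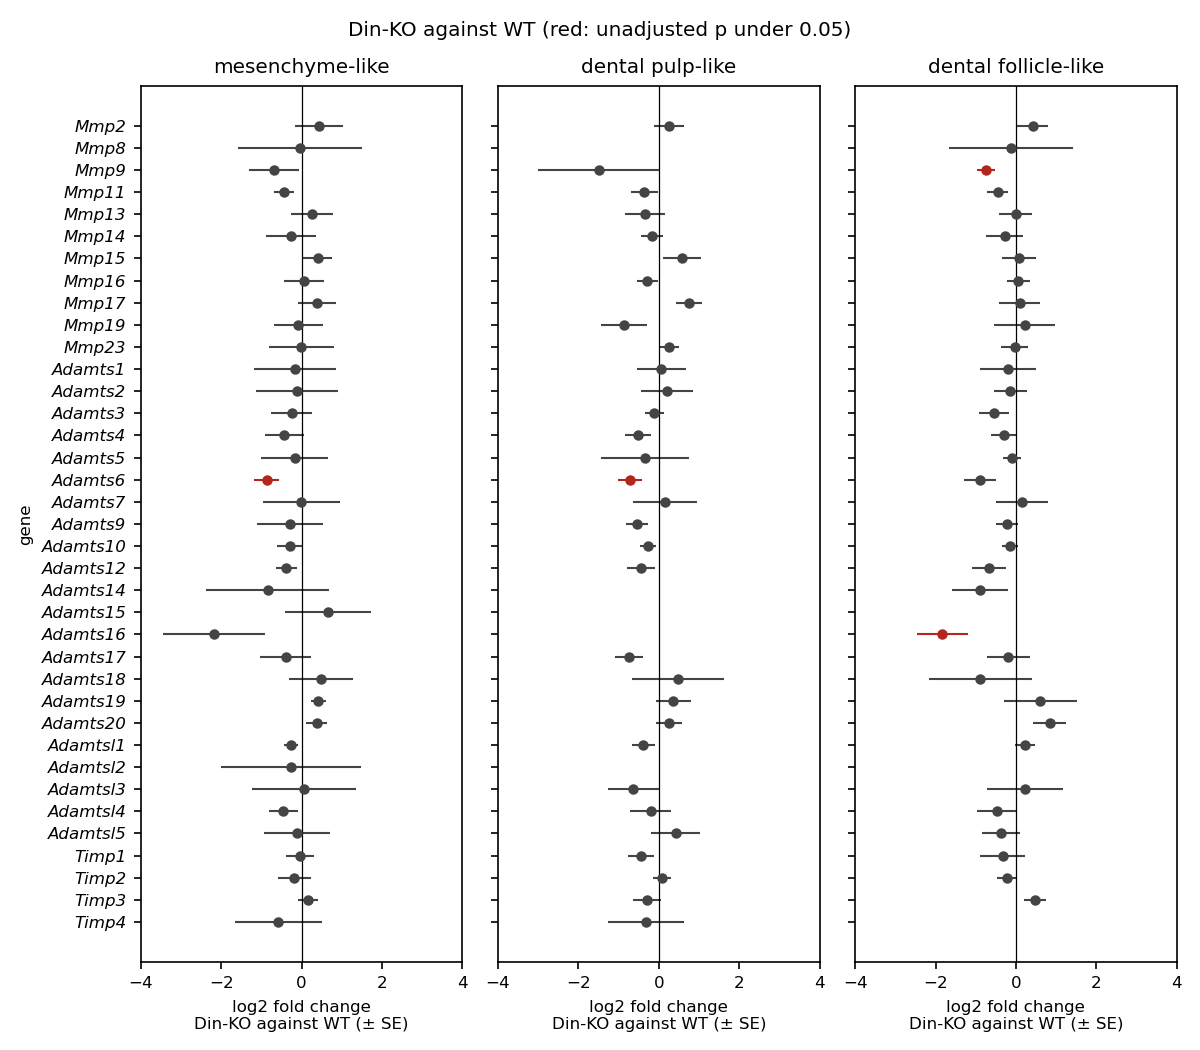
Log2 fold change of Din-KO against WT (horizontal axis, bars are standard errors) for the members tested in mesenchyme-like cells and in the pulp-like and follicle-like subtypes; red marks an unadjusted p under 0.05. Most bars cross 0, and Adamts6, Mmp9 and Adamts16 are the red points.

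Genes that act beside the members were read from 3 lists: 11 inhibitors and activators of matrix proteases, 16 other matrix proteases and 12 substrates. None of these 39 genes was called between genotypes in mesenchyme-like cells or in a subtype by edgeR or DESeq2. An unadjusted p under 0.05 was reached by Col3a1 (-0.71 ± 0.21), Serpine2 (0.57 ± 0.21) and Col1a1 (-0.60 ± 0.23) in pulp-like cells and by Plat, the tissue plasminogen activator (0.67 ± 0.23), in follicle-like cells. These genes helped to form the clusters, so their levels by subtype are given without a test. The 5 highest in mesenchyme-like cells were Col1a1, Col1a2, Col3a1, Bsg (basigin, an inducer of MMPs) and Vcan. Col1a1 had means of 1432, 9138 and 41320 CPM in pulp-like, follicle-like and odontoblast-like cells, and Col3a1 had 961.3, 6076 and 160.9 CPM, so the collagen I gene was highest where Timp3 was lowest. Vcan, the versican core protein that several ADAMTS enzymes cut, had 1000, 83.9 and 186.5 CPM. Serpine2, which blocks plasminogen activators and leads the Mmp13-rich cluster, had 43.5, 751.3 and 30.0 CPM.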

How the data were processed

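The authors demultiplexed and counted reads with bcl2fastq and Cell Ranger (6.0.2 in the matrix headers; mm10/GRCm38) and deposited raw UMI counts per gene and barcode for each library. Here, a barcode entered if it had 1000 genes or more and if mitochondrial and hemoglobin UMIs made up no more than 10% and 3%. Cells were clustered with Seurat 5.3.0 (2000 variable genes without the members and Mmp20, 30 components, resolution 1). Clusters were named from marker lists, needing at least 3 detected markers. Doublets were scored with Scrublet in scanpy 1.11.5, which called 87, 0, 4 and 8 cells (libraries in the report's order); none were removed in the main result, and leaving out the highest 5% of scores was an alternative. UMIs were summed per library and class (at least 20 cells) and tested with edgeR 4.0.16 (TMM, low-count filter, quasi-likelihood test, Benjamini-Hochberg over all genes tested, threshold 0.05), with the library as a block between classes and subtypes and no block between genotypes; DESeq2 1.42.0 in R 4.3.3 was an alternative. The tests were tested on simulated data. Shares of cells were also computed after thinning to 2000 UMIs, which left out 24, 11, 26 and 15 cells. Libraries held 32198098 to 54348039 UMIs, and intervals and limits from counts cover counting error only. Named in the map were members with a mean of at least 10 CPM in a class; between genotypes, members past the threshold, the 10 highest in mesenchyme-like cells and members changed by at least 1 on the log2 scale without overlap; members with an unadjusted p under 0.05 were named after their values were seen. Of 32285 gene IDs, 32158 matched the GENCODE annotation, with all 49 members. The members and the lists were chosen with earlier results of these data known.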

Additional observations from a re-analysis of the deposited data

How the results depend on the processing

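The counts of members called between Din-KO and WT were 0 in mesenchyme-like, B-like and epithelium-like cells under every alternative run. They became 1 in follicle-like, 1 in odontoblast-like, 3 in endothelium-like and 2 in macrophage-like cells without the filter on low counts. Leaving out each library in turn gave 0 to 1 in pulp-like cells (the 1 without Din-KO replicate 2) and 0 to 2 in follicle-like (1 without WT replicate 1, 2 without WT replicate 2), endothelium-like (2 without WT replicate 1) and macrophage-like cells (2 without Din-KO replicate 1). Same-numbered libraries deviated together (correlation 0.786 over 15289 genes, 2 pairs), but the labels do not say what a number shares. With the replicate block in edgeR, 1 member was called in endothelium-like and 2 in macrophage-like cells, and no other count of members moved. Calls over all genes in mesenchyme-like cells went from 0 to 96 with this block. DESeq2, which was run without the block, called 17 genes there.

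Members higher in a class numbered 4 with WT libraries alone in epithelium-like cells. In macrophage-like cells the count was 6 without the filter, 1 with WT libraries alone, 5 at a clustering resolution of 0.5 and 2 to 5 with a library left out. It was 1 with DESeq2, 0 with WT libraries alone and 1 to 2 with a library left out in monocyte or dendritic-like cells, and 5 with DESeq2 and 6 without the filter in neutrophil-like cells. With WT libraries alone, 11 members were higher and 3 lower in follicle-like than pulp-like cells, and 6 were higher and 6 lower in odontoblast-like than pulp-like cells; this setting has fewer libraries. Thinning changed the share of cells with a UMI to 38.4% for Mmp13, 14.0% for Mmp9 and 16.7% for Timp1 in follicle-like cells and to 2.14% for Timp3 in odontoblast-like cells. Adamts20 in odontoblast-like against pulp-like cells turned to 0.085 with the members among the clustering genes and to 0.19 at the resolution of 0.5; the cause was not tested.

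Between genotypes in mesenchyme-like cells, the uncalled log2 fold changes turned sign as follows: Mmp13 to -0.51 in Xist cells only, Adamts2 to 0.026 and Mmp23 to 0.041 with the replicate block, and Mmp23 to 0.019 with the highest doublet scores left out. With each library left out in turn they ran from -0.62 to 0.83 for Mmp13, -0.55 to 0.34 for Timp2, -0.17 to 1.29 for Mmp2, -0.84 to 0.70 for Mmp14, -0.084 to 0.47 for Timp3, -1.32 to 0.90 for Adamts9, -1.42 to 1.56 for Adamts2, -0.57 to 0.36 for Timp1, -0.60 to 0.055 for Adamts10 and -1.03 to 1.15 for Mmp23.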

Other observations

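An unnamed cluster led by Ccl5, Gzma and Acp5 held a few cells with very high Mmp9 that no comparison used. Its 14 cells with at least 3 of 6 osteoclast markers (10, 1, 3 and 0 cells in WT replicates 1 and 2 and Din-KO replicates 1 and 2) had 2843 Mmp9 UMIs, or 7086 CPM, and 78.6% of them had a UMI. They also had 416.2 CPM of Mmp14 and 463.6 CPM of Timp2. The 102 cells of the cluster without an osteoclast marker had 1 Mmp9 UMI, and the 64 cells with 1 or 2 such markers had 6. This split was made after the data were seen, the cells are too few for a test, and 10 of the 14 came from a single library.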
